A study of Mus musculus with 4 samples.

Results

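Gene deserts were taken as the parts of the mouse autosomes that lie more than 100 kb from any RefSeq transcript. In enhanced reduced representation bisulfite sequencing (ERRBS) of 4 livers, 19616 CpG cytosines of these stretches had at least 10 reads in every mouse, or 1.56% of the 1253673 autosomal cytosines common to all mice. Members were chosen by distance alone, with no methylation value, and the strands of a CpG were counted apart. For comparison, 150691 common cytosines lay more than 1 kb and at most 100 kb from a transcript and are called near-intergenic here.

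The study compared the liver methylomes of 2 male mice on an undefined mixed background that includes C57BL/6J and other strains (Mixed-1 and Mixed-2) with those of 2 male C57BL/6 mice (B6-1 and B6-2). Where 4 values stand in a row, the first pair is Mixed-1 and Mixed-2 and the second pair B6-1 and B6-2. All were fed a normal diet and were between 6 and 8 weeks old when the whole liver was taken. The mixed and B6 mice were kept at different institutions and the B6 libraries were deeper, so that strain, housing and depth cannot be told apart. ERRBS, as the labels describe it here, cuts genomic DNA with the restriction enzyme MspI, which recognises CCGG, selects fragments by size, converts unmethylated cytosine with bisulfite and reads the fragment ends, here with 50 cycles from one side. The paper's general account of the method adds a further enzyme, TaqαI, and cuts by it were not analysed here. The assay reads 5-hydroxymethylcytosine as methylated, and a C to T base difference of a mouse from the reference reads as unmethylated.

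Methyl groups on CpG cytosines are copied after replication by the maintenance methyltransferase DNMT1, and in adult tissue most of the genome outside promoters and enhancers carries them. Gene deserts are poor in CpGs and rich in interspersed repeats, whose copies are kept silent in part by methylation. Stretches of low methylation far from promoters are known to mark CpG islands without an annotated gene and distal regulatory elements.

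A few stretches of the reference genome (mm10, plus strand) show what was measured, with capitals at the CpGs that were covered in all 4 mice. The first was below 20% methylation at every covered cytosine, the second at most of them, and the third, a dense cluster, was above 80% at every covered cytosine in the mean of the 4 mice.

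chr12:46399344-46399567, low: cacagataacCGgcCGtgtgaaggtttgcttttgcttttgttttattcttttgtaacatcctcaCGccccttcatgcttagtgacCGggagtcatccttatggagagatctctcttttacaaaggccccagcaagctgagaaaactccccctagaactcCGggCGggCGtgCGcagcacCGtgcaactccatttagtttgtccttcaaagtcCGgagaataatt
chr9:31683396-31683559, low: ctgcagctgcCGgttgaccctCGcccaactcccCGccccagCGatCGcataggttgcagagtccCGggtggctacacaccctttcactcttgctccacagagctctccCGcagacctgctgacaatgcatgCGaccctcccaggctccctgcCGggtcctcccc
chr3:8327242-8327496, high: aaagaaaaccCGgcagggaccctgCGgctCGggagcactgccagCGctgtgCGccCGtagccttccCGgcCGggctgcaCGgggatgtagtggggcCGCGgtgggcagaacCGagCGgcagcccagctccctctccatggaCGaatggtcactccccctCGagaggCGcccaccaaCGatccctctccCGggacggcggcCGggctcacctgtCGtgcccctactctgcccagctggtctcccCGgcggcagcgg

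The next stretch is shown because its last CCGG was read as unmethylated on 1 strand and as methylated on the other. Capitals mark every CCGG.

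chr15:47180956-47181019, 1 strand low: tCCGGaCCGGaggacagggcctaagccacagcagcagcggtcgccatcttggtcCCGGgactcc

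The last 3 lie on chromosome 17 and hold CpGs at which the strains differed most, with capitals again at the CpGs covered in all mice.

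chr17:18791692-18791751, strain gap: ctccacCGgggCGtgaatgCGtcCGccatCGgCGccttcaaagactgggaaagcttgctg
chr17:55270113-55270172, strain gap: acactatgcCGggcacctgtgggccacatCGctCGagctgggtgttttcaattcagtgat
chr17:51293412-51293471, strain gap: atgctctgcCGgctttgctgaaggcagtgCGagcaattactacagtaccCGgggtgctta

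Desert sequence was sampled thinly. The reference held 1229 stretches more than 100 kb from a transcript, 310 Mb in all or 12.9% of the autosomal bases, and 986 of them held at least 1 of the cytosines. The median stretch measured 138 kb and the longest 3277 kb. Deserts carried 5.34 CpGs per kb against 7.63 in near-intergenic sequence, and 378 CCGG sites per Mb against 557. Of the reference CpGs of deserts, 1.05% were covered in all mice, against 1.95% near genes and 4.93% over the autosomes. The 19616 cytosines belonged to 17420 CpGs, of which 2196 were covered on both strands. Their median distance to the nearest transcript was 188 kb and the greatest 1671 kb. Between 100 and 110 kb there were 1549 cytosines with a mean methylation of 80.6%, and just outside the bound, between 90 and 100 kb, 2283 with 76.1%.

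Of the 986 deserts, the 3 with the most covered cytosines were named. A 3.28 Mb desert at chr3:41903308-45180438, with Pcdh10, a protocadherin, as its right protein-coding neighbour and D3Ertd751e on the left, held 197 cytosines in 58 clusters. Their mean methylation was 89.8%, 89.8%, 88.2% and 88.7%, and 3 were low. The desert at chr9:11010190-12991266, between Cntn5, a contactin, and Jrkl, held 150 with a mean of 87.9% ± 0.784 (SD, n = 4), and none was low. That at chr2:98810392-101313260, between Lrrc4c, which encodes a ligand of netrin G, and Iftap, held 148 with a mean of 85.3% ± 0.537 (SD, n = 4). Among the 346 deserts with 20 or more cytosines, the mean over mice ran from 32.2% to 94.5% with a median of 85.2%, and 19 were under 70%.

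The protein-coding genes that border deserts with a covered cytosine numbered 1169. Cadherins (Cdh) made up 13 of them, or 1.11%, against 0.136% of all 20558 autosomal protein-coding genes, and 5 of the 6 autosomal Irx genes, which encode Iroquois homeobox factors, were among them. Potassium channel genes (Kcn) were 1.37% against 0.443%, Pcdh 0.599% against 0.326%, Sox 0.257% against 0.0876% and Fox 0.257% against 0.209%. Solute carriers (Slc) stood at 1.88% against 1.83%. Olfactory receptors (Olfr) made up 0.171% of the bordering genes against 5.37% of all, vomeronasal receptors (Vmn) 0.599% against 1.71%, and zinc finger genes (Zfp) 1.03% against 1.90%. These shares are descriptions of gene position and were not tested.

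Every chromosome contributed, from 239 cytosines on chromosome 19 to 2055 on chromosome 1. Density ran from 45.5 per Mb of desert on chromosome 19 to 75.1 on chromosome 13. Mean methylation was lowest on chromosome 19, at 79.6% ± 0.635 (SD, n = 4), and highest on chromosome 15, at 86.2% ± 0.422.

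Median coverage of the desert cytosines was 31, 34, 55 and 52 reads, against 34, 38, 57 and 55 near genes. Both B6 libraries were thus deeper than both mixed libraries. Under 20 reads stood 19.5% and 16.8% of the desert cytosines in the mixed mice and 5.75% and 4.90% in the B6 mice. In the file of each mouse on its own, 21803, 21479, 26479 and 25821 desert cytosines had 10 reads or more. The B6 mice had 4509 more on average, with no overlap between strains. Over all autosomes the files held 1345770, 1303068, 1523899 and 1495126 cytosines, also with no overlap. Deserts made up 1.62%, 1.65%, 1.74% and 1.73% of these. For the desert number, 2 mice against 2 allow no p below 0.333 in an exact permutation test, which was the value found (two-sided). At 10 reads, 1 read moves a value by 10 percentage points, and intervals of single values cover counting error only, since amplified reads need not stem from separate molecules.

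Desert cytosines were highly methylated in every liver. The mean was 83.6%, 84.1%, 83.5% and 83.5%, and the medians ran from 89.7% to 90.5%. More than 80% methylation was found at 74.8%, 76.2%, 74.4% and 74.6% of the cytosines. Less than 20% was found at 3.49%, 3.46%, 3.38% and 3.32%. The mixed mean exceeded the B6 mean by 0.352 percentage points, and the low share by 0.120 points, each with an exact permutation p of 0.333, the smallest this design allows (two-sided). Bins of 10 points put 50.7% ± 1.58 (SD, n = 4) of the cytosines at 90% or above and 25.2% ± 0.708 from 80% to 90%. Each bin from 10% to 50% held at most 1.21%, and the lowest bin, below 10%, held 2.74% ± 0.0212.

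**Figure D1:**
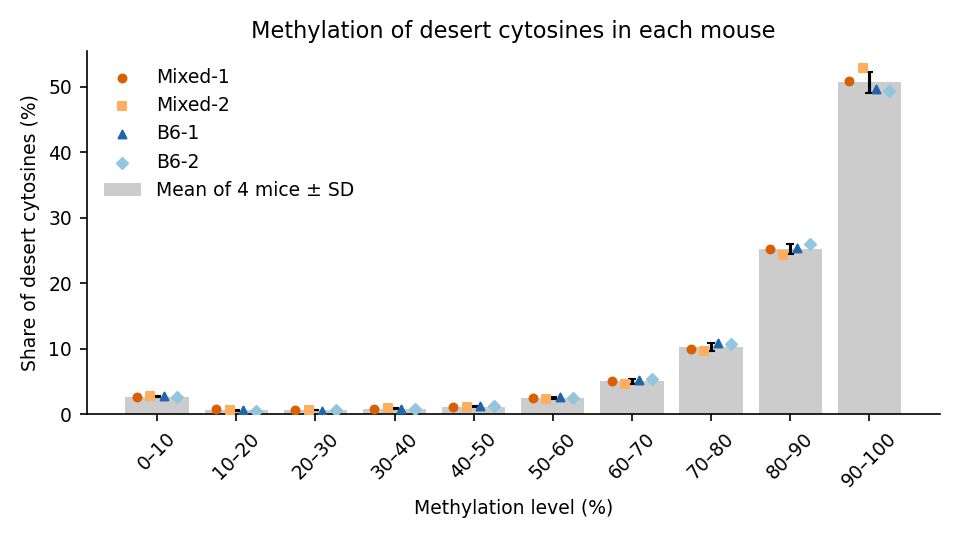
Share of desert cytosines (vertical axis, percent) in each 10-point bin of methylation level (horizontal axis, percent). Bars are the mean of 4 mice with the SD and points are single mice; 50.7% lie at 90% or above, and the lowest bin rises above its neighbour, at 2.74% against 0.669%.

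Classes were largely shared by the mice. Of the 19616 cytosines, 11394, or 58.1%, were above 80% in all 4 mice and 551 were below 20% in all 4. With classes set on the mean of the mice, 15196 were high, 3771 intermediate and 649 low. Only 31 were below 20% in one mouse and above 80% in another. The median SD between mice was 4.64 points for high, 8.74 for intermediate and 2.64 for low cytosines. Pearson's correlation over the 19616 cytosines ran from 0.856, between Mixed-2 and B6-1, to 0.886, between the B6 mice, the deepest pair.

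Deserts were more methylated than near-intergenic sequence in every mouse. Near genes the mean was 64.5%, 65.0%, 64.3% and 64.4%. The within-mouse difference was 19.1 points on average, from 19.0 to 19.2, with an exact sign-flip permutation p of 0.125, the smallest that 4 mice allow (two-sided). The low share was 3.41% ± 0.0739 in deserts against 20.96% ± 0.193 near genes (SD, n = 4), and the high share 75.0% ± 0.829 against 51.5% ± 0.746, both with the same p of 0.125 in the same exact test. With each cluster of neighbouring cytosines counted once in place of each cytosine, the difference in means was 9.13 points. The difference between strains in this desert gap was -0.0765 points for the mean (exact permutation p = 0.667).

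Repeats and CpG density moved with this difference. Soft-masked sequence, the bases that the reference marks as repeats or low complexity, held 61.7% of the desert cytosines against 22.3% near genes and 7.65% of all common ones. Among soft-masked cytosines the mean was 86.3% ± 0.184 in deserts and 83.7% ± 0.174 near genes (SD, n = 4), 2.56 points apart. Among unmasked ones it was 79.5% ± 0.576 against 59.0% ± 0.401. In unmasked sequence with 10 or more CpGs in 200 bp, the density of CpG islands, 842 desert cytosines averaged 81.5% and 27319 near-intergenic ones 23.3%. In unmasked sequence with at most 4 CpGs the means were 78.4% and 73.7%. Every one of these differences had the same sign in all 4 mice, with an exact sign-flip p of 0.125. The difference was thus 58.2 points in the densest unmasked sequence, 13.4 points at 5 to 9 CpGs and 4.68 points in the sparsest.

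In unmasked sequence the mean was higher in each bin further from transcripts, in all 4 mice, while repeats varied less. From 1 to 10 kb the unmasked mean was 51.8%, from 50 to 100 kb 69.4%, from 100 to 200 kb 78.1% and beyond 500 kb 83.3% ± 1.08 (SD, n = 4). Soft-masked cytosines stood at 80.4% from 1 to 10 kb, 86.2% from 50 to 100 kb, 86.5% from 100 to 200 kb and 86.2% beyond 500 kb. The soft-masked share rose over these bins from 15.2% to 73.5%.

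**Figure D2:**
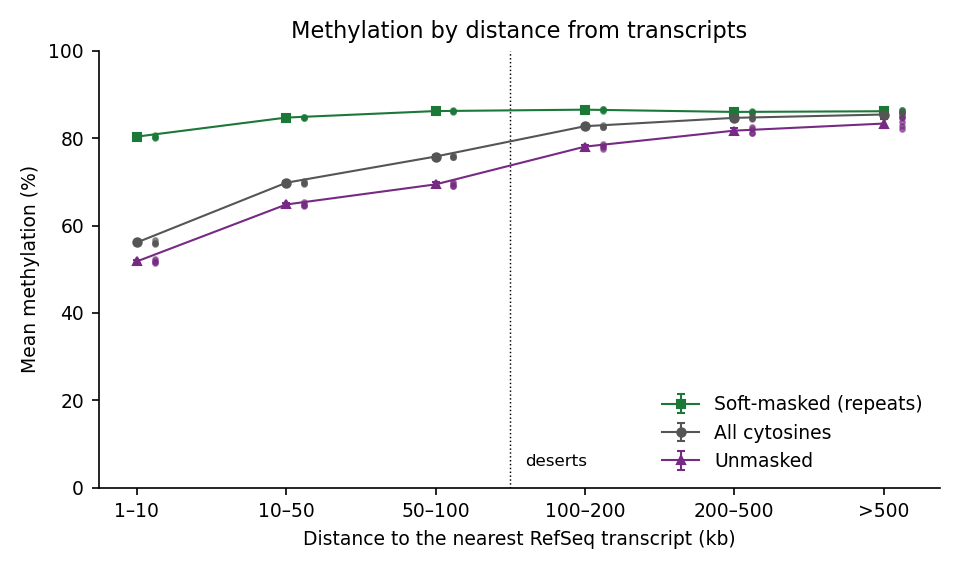
Mean methylation (vertical axis, percent) by distance to the nearest RefSeq transcript (horizontal axis, kb bins), for all, soft-masked and unmasked cytosines. Lines join the means of 4 mice with the SD, small points are single mice and the dotted line is the bound of the deserts; unmasked cytosines go from 51.8% to 83.3%, soft-masked ones from 80.4% to 86.2%.

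Many desert cytosines lay in sequence with near-identical copies. The 31 bases around a cytosine were unique on the autosomes for 13472 cytosines, or 68.7%, against 89.7% near genes. Unique ones averaged 82.3% ± 0.431, those with more than 100 and up to 1000 copies 89.6% ± 0.610 and those with over 1000 copies 87.5% ± 0.111 (SD, n = 4). Reads from identical copies could be assigned to any of them, so values at such cytosines are uncertain as to their place. For the unique cytosines alone, deserts stood 20.004 points above near-intergenic sequence. Some 31-base words recurred among desert cytosines, and the first and the fifth by number of cytosines are shown with the measured CpG in capitals, since each was read at many sites.

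word 1: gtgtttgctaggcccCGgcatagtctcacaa
word 2: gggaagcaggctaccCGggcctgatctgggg

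Word 1 surrounded 58 desert cytosines on 17 chromosomes and occurred 17458 times on the autosomes. Its mean methylation was 93.5%, 92.8%, 91.4% and 91.8%, and 57 of the 58 were above 80%. The words between these in number surrounded 51, 47 and 38 cytosines, with means of 91.6%, 92.6% and 90.8%. Word 2 surrounded 28 cytosines with a mean of 89.3% ± 1.63 (SD, n = 4). One of these stood at 3.25% and the other 27 were above 80%.

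Neighbouring cytosines formed small groups. With gaps of at most 300 bp there were 5880 clusters, with a mean of 3.34 cytosines against 4.03 near genes, and 1603 held a single cytosine. The largest held 40. Of the 4277 clusters with 2 or more cytosines, 2157, or 50.4%, were above 80% at every cytosine and 22 were below 20% at every one. The median range within a cluster was 12.5 points. Cytosines 2 to 20 bp apart differed by 4.79 points in the median, those over 100 and up to 300 bp apart by 7.55 and those 10 to 100 kb apart by 7.75. Near genes the same medians were 3.52, 8.19 and 12.5 points.

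The 2 strands of a CpG mostly matched, with an exception at MspI sites. Of the 2196 CpGs covered on both strands, 301 differed by 50 points or more in the mean over mice, and 299 of these were in a CCGG, although only 814 of the 2196 were. Outside CCGG 2 of 1382 differed by as much. In all 4 mice and with the same strand lower, 271 CpGs differed by 50 points or more.

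The low strand had its place in the digest. For a cytosine in a CCGG, the distance was taken to the next CCGG on its 5′ side, where a read that runs over it can begin. At 38 to 43 bp 2 of 153 cytosines were below 20%, at 44 to 46 bp 36 of 168, at 47 to 49 bp 275 of 361, at 50 to 52 bp 71 of 146 and at 53 to 60 bp 3 of 161. The mean at 47 to 49 bp was 16.5%, 14.8%, 17.4% and 16.95%, and at 53 to 60 bp it was 88.5% ± 1.88 (SD, n = 4). All 4 mice were low in the same distances. Cytosines in a CCGG at 44 to 52 bp after another are called fragment-end cytosines here. This range was chosen after the values were seen, and it lies at the length of the 50-cycle reads.

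**Figure D3:**
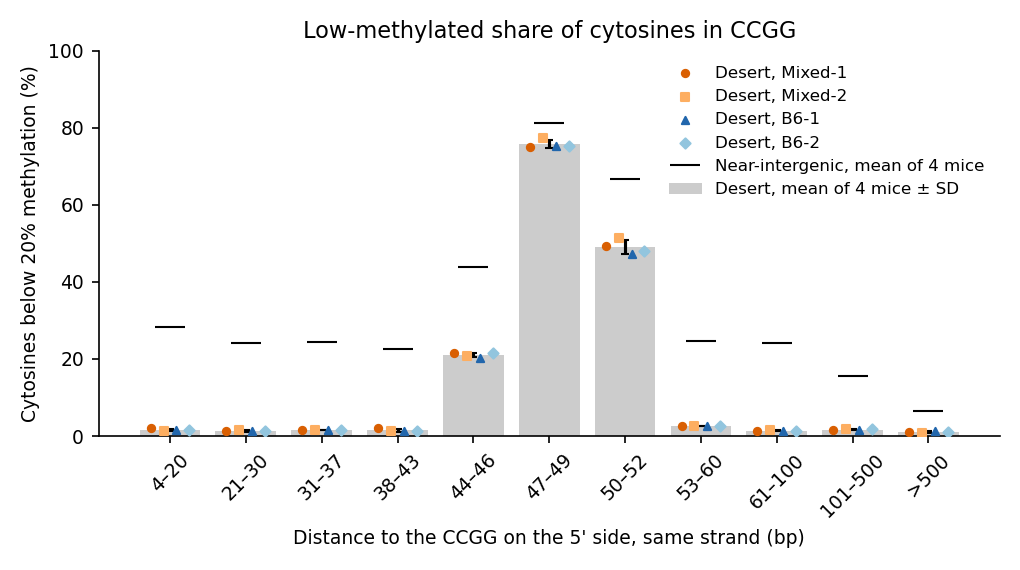
Share of CCGG cytosines below 20% methylation (vertical axis, percent) by the distance to the CCGG on their 5′ side (horizontal axis, bp). Bars are the mean of 4 mice with the SD in deserts, points are single mice and black dashes are near-intergenic cytosines; the desert share is 75.8% at 47 to 49 bp and at most 2.48% below 44 bp and above 52 bp.

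Fragment-end cytosines were 675 of the desert cytosines, or 3.44%, and 382 of the 649 low ones, or 58.9%. Where no CCGG lay within 300 bp ahead, so that a read starting at the site itself would need a longer fragment, 237 of 238 were low, with a mean of 3.85%, 1.90%, 1.75% and 2.29%. Where a CCGG lay ahead, 145 of 437 were low and the mean was 53.5% ± 1.12 (SD, n = 4). At the 404 CpGs with a fragment-end cytosine on exactly 1 covered strand, that strand averaged 20.6% ± 0.781 and the other 85.8% ± 0.437 (SD, n = 4). The fragment-end strand was the lower at 375 of the 404. In the stretch of chromosome 15 printed above, the forward cytosine of the last CCGG, 48 bp after another CCGG, was 4.35%, 4.08%, 2.70% and 0% methylated. Its partner on the reverse strand was 93.0%, 86.5%, 100% and 94.9% methylated. As background, MspI leaves an overhang that end repair fills with cytosines without a methyl group, and the labels list both steps. The part of this filling in the low values was not tested.

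Without the fragment-end cytosines the low share of deserts was 1.53% ± 0.0669 in place of 3.41% (SD, n = 4), and the mean 85.4% ± 0.303.  Near genes 2.68% of the cytosines were fragment ends, against 3.44% in deserts, and 70.6% of these were low, against 56.6%. They made up 9.08% of the low cytosines near genes, and leaving them out gave a low share there of 19.6% ± 0.223. The difference in low share between deserts and near-intergenic sequence was then -18.1 points, from -17.6 with them.

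The remaining 267 low cytosines lay in 98 clusters, and 180 of them in the 29 clusters with 3 or more. They were soft-masked in 15.7% of cases, against 64.7% of the low fragment-end cytosines, and 92.9% had unique 31 bases. GENCODE transcripts, a wider annotation than RefSeq, overlapped 32 of the 649 low cytosines, or 4.93%, against 5.86% of the high ones. Within 1 kb of a GENCODE start 786 desert cytosines averaged 86.3%, and 12 of them were low. RefSeq pseudogenes held 573 desert cytosines with a mean of 88.4%, 4 of them low. Only 2 of the 19616 lay in a RefSeq functional element. Immune receptor gene segments, which RefSeq does not list as transcripts, lay within 100 kb of 408.

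Of the clusters named next, none held a low fragment-end cytosine. At chr12:46399354-46399557, between Stxbp6 and Nova1, a gene for a neuronal splicing factor 298 kb away, all 16 cytosines were below 20% in all 4 mice. Their mean was 3.09%, 2.26%, 3.03% and 3.11%, at median coverages of 35, 44, 54.5 and 51.5. The stretch had 8 CpGs per 200 bp, was not soft-masked, and its nearest RefSeq transcript was the predicted Gm40416 at 187 kb.

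At chr9:31683406-31683549, 163 kb from Barx2, a homeobox gene, and 219 kb from Tmem45b, 13 of 15 cytosines were low. The mean was 7.94%, 7.87%, 12.6% and 10.6%, with single cytosines from 2.07% to 31.7%. At chr8:107944669-107944998, 334 kb from Zfhx3, a zinc finger homeobox gene, and 356 kb from Psmd7, a proteasome subunit gene, 11 of 13 were low. Mixed-2 stood at 12.6% and the others at 5.57%, 5.25% and 6.06%. GENCODE places a Zfhx3 transcript over this cluster, with a start 2025 bp away. A cluster on chromosome 18, 155 kb from Gata6, which encodes an endodermal transcription factor, and 393 kb from Rbbp8, had 16 low cytosines of 20. Its mean was 23.9%, 24.3%, 19.3% and 19.2%, at median coverages of 13.5, 19, 56.5 and 40.5.

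Further down the order, all 7 cytosines at chr1:14506961-14506997, between Eya1, a developmental coactivator gene, and Msc, a bHLH factor gene, were below 20% in every mouse. Their mean was 0.510%, 1.62%, 0% and 2.11%.

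The cluster with the most low cytosines differed from the others in depth. At chr3:5860620-5860822, 282 kb from Pex2, a peroxisome biogenesis gene, and 755 kb from 1700008P02Rik, 24 of 25 cytosines were low. Its median coverage was 2760, 2748, 1723 and 1821 reads, while the 31 bases were unique on the autosomes at 23 of the 25. The mean methylation was 9.27%, 14.5%, 6.396% and 5.98%, so that the mixed mice were above the B6 mice. Its depth was greater in the mixed mice, against the order over all desert cytosines. The origin of its reads was not tested. Copies were counted on the reference autosomes alone, so unique bases there do not settle how many copies the genome holds. Of the 5880 clusters, 4 had a median coverage over 500, with 36 cytosines. With all reads pooled, the desert mean was 78.9%, 79.7%, 81.8% and 81.5%, a strain difference of -2.30 points. Without the 4 clusters that difference was -0.00739 points.

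By contrast, the cluster at chr3:8327252-8327486 had 27 cytosines at 21 covered CpGs with means over the mice from 80.9% to 98.8%. Its mean was 93.3%, 95.4%, 91.7% and 91.3%, and the nearest transcript, the small RNA gene Gm24614, lay 102 kb away.

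**Figure D4:**
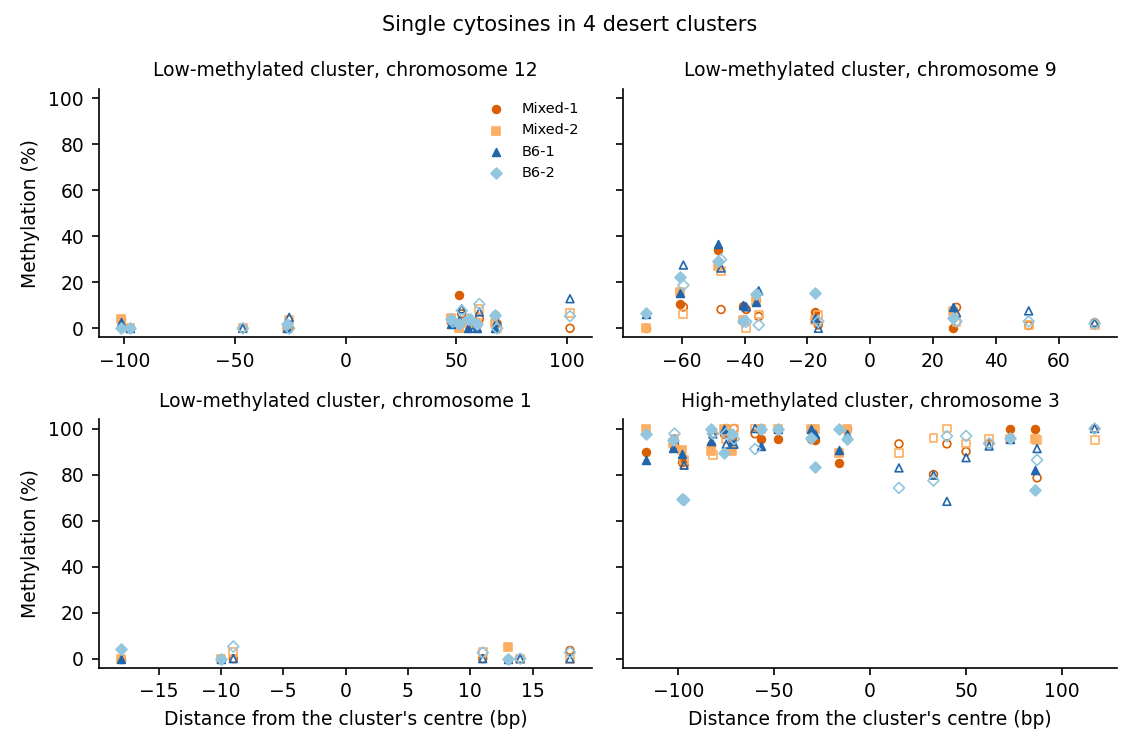
Methylation (vertical axis, percent) of single cytosines by distance from the centre of their cluster (horizontal axis, bp) in 3 low clusters and 1 high cluster. Colours and shapes are the 4 mice, filled for the forward and open for the reverse strand; the clusters of chromosomes 12 and 1 stay below 20% in all mice and the high cluster averages 92.9%.

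Windows of 200 bp were taken around 1 cytosine per cluster within each class, so a cluster can count in more than 1 class. Of the 348 clusters with a low cytosine, 247 also held a high one, so most low windows share their stretch with a high window. The median GC content was 53% for 348 low, 52% for 2278 intermediate and 50% for 5203 high windows. Their median CpG counts were 5, 4 and 4. Windows with a GC content of at least 50% and a CpG ratio over 0.6, the usual terms for CpG islands, were 11.8%, 6.37% and 9.44% of the classes, against 13.7% of 133267 windows over all common clusters. CCGG was in 97.7% of the low and 99.8% of the high windows, as the digest sets. Motifs were searched on both strands, and none of them contains another. CACGTG, the E-box, was in 1.72% of low, 2.02% of intermediate and 1.69% of high windows, against 3.38% over all clusters. AGGGGGC, a core of the CTCF motif, was in 2.01%, 2.55% and 1.77%, against 3.98%. TGTTTAC, bound by FOXA factors, was in 1.72%, 2.37% and 1.86%, against 2.08%. CAAAGTC, a core of the HNF4A motif, was in 2.01%, 1.98% and 1.61%, against 2.74%, and TGANTCA, the AP-1 motif, in 3.74%, 3.86% and 3.40%, against 4.77%. In the 98 low windows of cytosines that are not fragment ends, CACGTG and TGTTTAC were each in 2.04%, CAAAGTC and TGANTCA each in 5.10%, or 5 windows, and AGGGGGC in 0. Of these 98 windows 31.6% were soft-masked and 86.7% unique, against 63.8% and 64.2% of the high windows. These matches are descriptions of the letters.

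Strain gaps were small at most desert cytosines. The median absolute gap between the mean of the mixed and the mean of the B6 mice was 4.004 points, and 95% of cytosines were within 15.4. A gap of 25 points or more was found at 213 cytosines in 162 clusters, or 1.09%, against 0.366% of all common autosomal cytosines and 0.899% near genes. The mixed mice were lower at 143 and higher at 70. The 2 mixed mice differed from each other by 25 points at 593 cytosines and the 2 B6 mice at 424, but single mice vary more than the means of 2 mice do, so these counts cannot be read against the 213. The strains did not overlap at 179 of the 213, or 0.913% of the desert cytosines, against 0.331% over all common ones. Near genes they did not overlap at 1198 of 1354 such gaps, among 150691 cytosines. Chromosome 17 held 17 of the gaps among its 600 cytosines, or 2.83%, and chromosome 5 held 30, or 2.55%.

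At 50 points there were 13 gaps, or 0.0663%, against 0.0438% near genes and 0.0209% of all common cytosines. The mixed mice were lower at 12 of the 13, 6 of them on chromosome 17, as they were at 54 of 66 near genes and 188 of 262 over all common cytosines. Single mice also stood apart. Mixed-1 alone was at least 50 points from the other 3 mice, themselves within 25 points, at 21 cytosines and Mixed-2 at 37, against 2 for B6-1 and 1 for B6-2. Mixed-1 was the lower at all of its 21 and Mixed-2 at 36 of its 37. These counts were not made outside deserts and cannot be read as particular to them. The 2 mixed mice differed from each other by 50 points at 0.306% of desert cytosines and the 2 B6 mice at 0.0357%. Near genes these shares were 0.212% and 0.0372%, and over all common cytosines 0.0780% and 0.0148%. Base differences of the mixed mice from the reference were not tested.

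In a logistic model of the methylated and unmethylated reads at every common autosomal cytosine, with the spread moderated by limma, 7 desert cytosines were called strain-variable at an adjusted p under 0.01 and a gap of at least 25 points. They were 0.0357% of the desert cytosines, against 0.00558% of all 1253673, belonged to 5 CpGs in 4 clusters, and 6 were lower in the mixed mice (0.0306% against 0.00415%) and 1 higher (0.00510% against 0.00144%). By Fisher's exact test on the summed reads of each strain, blind to differences between its mice, 100 desert cytosines were called, 0.510% against 0.127%. Without Mixed-1 the model called 6, and without Mixed-2, B6-1 or B6-2 it called 0, with 141, 128 and 149 at 25 points and an unadjusted p under 0.05. The model with the mouse numbers as a block called 0, with 127 at 25 points and an unadjusted p under 0.05. For the block and the fits without a mouse, shares over all common cytosines were not taken. Those counts therefore cannot be read as particular to deserts.

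On chromosome 17 the called CpGs stood beside CpGs of the same cluster that were methylated in all 4 mice. At chr17:18791721, forward strand, 123 kb from Vmn2r97 and 194 kb from Vmn2r96, genes of vomeronasal pheromone receptors, the mice had 1.92% of 52 reads, 0% of 42, 95.2% of 105 and 93.7% of 111 (model moderated by limma, adjusted p = 1.46e-05). The cytosine 3 bp further on had 2.56%, 0%, 85.4% and 94.3% (adjusted p = 0.000202 in the same model). The other 8 cytosines of the cluster lay between 81.6% and 100% in every mouse.

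At chr17:55270142-55270143, between Slc5a7, the choline transporter gene, and St6gal2, a sialyltransferase gene 175 kb away, both strands of a CpG were called. On the forward strand the mice had 0%, 0%, 84.6% and 89.7%, and on the reverse strand 0%, 0%, 93.2% and 93.0% (limma-moderated model, adjusted p = 0.000430 and 5.73e-05). The next CpG, 4 bp on, had 57.8%, 57.4%, 88.5% and 79.5% on the reverse strand. On its forward strand it had 50%, 73.5%, 75% and 82.5%, and neither strand was called.

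At chr17:51293441-51293442, 112 kb from Tbc1d5, a regulator of Rab GTPases, and 443 kb from Satb1, a chromatin organiser gene, the forward strand had 0% in both mixed and 100% in both B6 mice (adjusted p = 0.00493, limma-moderated model). The reverse strand had 0%, 0%, 100% and 95.8%. Coverage ran from 13 to 27 reads, and 0 of 13 reads allows a level of up to 23.1%. The cytosines 20 bp away on each side were at 81.3% or above in every mouse.

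The called cytosine with higher values in the mixed mice was at chr14:40635071, reverse strand, in soft-masked sequence 176 kb from Sh2d4b. It had 62.2% of 45 reads and 59.1% of 22 in the mixed mice and 0% of 46 and 0% of 53 in the B6 mice (adjusted p = 0.00414, limma-moderated model). The letters around this cytosine are nearly those of word 1, which occurred 17458 times on the autosomes. Word 1 has TG where the called CpG stands. The exact letters around the called cytosine were unique, but that count leaves out near-identical copies. Whether its reads came from such copies was not tested. The widest gap without overlap in any other cluster was on chromosome 18, 112 kb from Vmn1r238, with 17.5%, 14.3%, 84.6% and 100%, and it was not called (adjusted p = 0.102 in the same model). No reads with a base other than C or T were present at these cytosines in any mouse. A C to T difference from the reference reads as T, so it would not show in this count.

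**Figure D5:**
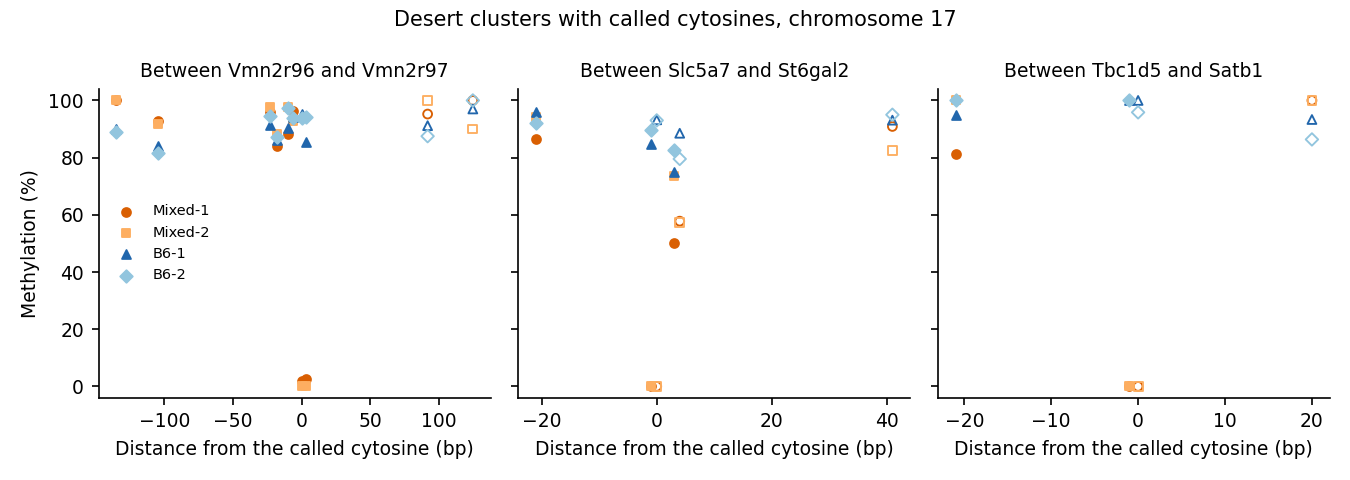
Methylation (vertical axis, percent) of single cytosines by distance from the called cytosine (horizontal axis, bp) in the 3 clusters of chromosome 17 with calls. Colours and shapes are the 4 mice, filled for the forward and open for the reverse strand; at the called CpGs both mixed mice are at 2.56% or below and both B6 mice at 84.6% or above.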

How the data were processed

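Liver DNA of 4 mice was analysed. The authors mapped ERRBS reads to mm10 with BSMAP, per the paper's methods, while the submitters' processing notes list Bismark and SAMtools. Deposited files give, for each CpG cytosine, strand and mouse, the coverage as a count of reads (10 or more) and the percent read as C or T, without normalization. Strain came from the labels, and the members and lists were chosen with earlier results of these data known.

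Cytosines present in all 4 files on 19 autosomes were placed on GRCm38.p6 and its RefSeq transcripts. Distances, clusters, soft-masking and 31-base copies came from that reference. Strains were compared over mice by exact permutation, and deserts with near-intergenic sequence by exact sign flips (smallest p 0.125), both two-sided. Strain-variable cytosines came from a logistic model over all common cytosines, its overdispersion moderated by limma 3.58.1 (R 4.3.3) with Benjamini-Hochberg adjustment. On simulated data the prior first failed, and it was then estimated from cytosines between 5% and 95% methylated. For this comparison over 100000 cytosines, the model recovered 117 of 200 changed ones with 0 false calls, and the block model 0. Python 3.11.15, numpy 2.4.6, pandas 2.3.3, scipy 1.17.1, numba 0.67.0 and matplotlib 3.10.9 were used.

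Alternatives changed the coverage bounds, strands, distance bound, transcripts, soft-masking, class bounds, weighting, test and mice. Of these, 5 were chosen after seeing the data. Named genes were fixed by rule as the neighbours of the 5 clusters with most low cytosines, of called cytosines in up to 5 clusters and of the 3 fullest deserts, plus 10 families bordering deserts. The Eya1 and high clusters were chosen after their values were seen. The mouse numbers did not pair the mice. Sequences on chromosome 18 are not printed.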

Additional observations from a re-analysis of the deposited data

How the results depend on the processing

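The differences between deserts and near-intergenic sequence kept their direction under all 18 alternatives for the mean and all 16 for each share. The mean difference ran from 9.13 to 28.0 points, the low share from -20.6 to -15.1 and the high share from 16.4 to 25.5. No p can pass 0.05 with 4 mice, so these settings bear on direction and size alone. Between strains, the mean turned to -2.30 points with reads pooled and to -0.00739 with reads pooled and the 4 deepest clusters left out, and the low share turned to -0.452 points with curated transcripts alone, where more cytosines count as desert. At class bounds of 10% and 90% the low share differed by 0 points. The causes of the other moves were not tested. Leaving out 1 mouse gave a strain difference from 0.131 to 0.573 points in the mean and from 0.0918 to 0.148 in the low share. The desert difference ran from 19.1 to 19.2 points in the mean, from -17.7 to -17.5 in the low share and from 23.5 to 23.6 in the high share.

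The 7 called cytosines depended on more settings. Leaving out 1 mouse gave from 0 to 6 calls, 6 without Mixed-1 and 0 without Mixed-2, B6-1 or B6-2. Every one of these fits leaves an arm with 1 mouse that is assumed to vary like the others. A 1-mouse arm therefore does not set the fits with 0 calls apart, and what does was not tested. Without Mixed-2, B6-1 or B6-2 there were 141, 128 and 149 cytosines at 25 points and an unadjusted p under 0.05. Limma on log2 ratios called 0, with 141 at that unadjusted bound, and deserts beyond 200 kb held 0, with 71. Curated transcripts gave 18, an adjusted p under 0.05 gave 11 and Fisher's exact test 100. Apart from Fisher's exact test, the counts under these alternatives were not set beside a share over all common cytosines. They bear on how stable the calls were and cannot be read as particular to deserts. The deviations of same-numbered mice had a correlation of -0.00434 across cytosines, so the numbers were taken as a label only. With the numbers as a replicate block 0 were called, and the strain differences stayed at 0.352 points for the mean, 0.120 for the low share and 4509 for the number of cytosines, each with an exact permutation p of 0.5, the smallest 2 pairs allow. Depth limits single cytosines, since at 10 reads a level moves in steps of 10 points.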
